A study of Mus musculus with 17 samples.

Results

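Dlx1 and Dlx2 encode a pair of homeobox transcription factors that lie next to each other on mouse chromosome 2. The comparison described here sets newborn mice that lack both genes (Dlx1/2-/-, here mutant) against newborn mice that carry them (Dlx1/2+/+, here wild type). Its members were the 9 libraries of the newborn count table, 4 wild type and 5 mutant, of 17 libraries in the series, and their groups were taken from the labels. The mice had a mixed background of CF1, C57BL/6J and CBA/J, and all 9 libraries came from the small intestine at postnatal day 0 (P0), from cells sorted for the R26R-TdTomato reporter switched on by Wnt1-Cre. The other 8 libraries, 4 wild type and 4 mutant, came from the small bowel of embryos at E14.5. Those embryos were of mixed CF1 and C57BL/6J background and carried the EDNRB-L10A-EGFP reporter, and their libraries enter only where the change at the newborn age is set against the embryonic one. Wnt1-Cre is known to mark neural crest cells and what descends from them, so neurons, glia and progenitors were read together as 1 RNA pool. Nothing in the labels ties a library to 1 animal, and p-values therefore measure the spread between these libraries, which may be technical. In such pools, fewer cells of a type and less RNA per cell cannot be told apart.

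The enteric nervous system is the network of neurons and glia in the bowel wall, and it forms from neural crest cells that migrate into the gut, divide and differentiate. Its neurons include inhibitory motor neurons, which relax gut muscle with nitric oxide and vasoactive intestinal peptide (VIP), excitatory motor neurons, which use acetylcholine and tachykinins, and interneurons and sensory neurons. In the embryonic forebrain, DLX1 and DLX2 are known for driving the differentiation and migration of interneurons that use GABA. In the bowel of a newborn mouse, neurons are still being born beside dividing progenitors.

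Each P0 library held 4463830 to 4469731 counts of sense-strand reads, with 18492 to 20285 genes detected. The markers of the sorted cells were present in every library. The summed level of 7 neuronal markers was 2160 to 3434 CPM (counts-per-million, on TMM-scaled totals), and that of 6 glial and progenitor markers 2190 to 3246 CPM. Epithelial markers were present too. Their sum ran from 1542 to 5054 CPM in wild-type and from 1617 to 7692 CPM in mutant libraries, most of it Apoa4, an intestinal lipoprotein, with mutant library 3 far above the others of its group. Fibroblast markers summed to 2199 to 3064 CPM in wild-type and 2609 to 4723 CPM in mutant libraries. Over the wild-type libraries Col3a1, Col5a1, Postn and Col1a1 held 11325, 10007, 9689 and 5982 counts, while Dcn, Pdgfra and Lum held 151, 120 and 42. That sum thus follows a few abundant members, and which cells held their RNA was not tested. Immune, mesothelial and red cell markers each summed to less than endothelial ones in every library. The sexes were mixed in both groups, with 2 male and 2 female wild-type and 3 male and 2 female mutant libraries by their Xist and Y-linked counts.

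Counts of both deleted genes were near 0 or far below wild type in all 5 mutants. Dlx1 (ENSMUSG00000041911, GRCm38 chromosome 2, 71528113 to 71533981, plus strand) stood at 73.3, 76.4, 77.8 and 66.9 CPM in wild-type libraries 1 to 4 and at 5.87, 6.46, 4.07, 5.14 and 7.18 CPM in mutant libraries 1 to 5. Dlx2 (ENSMUSG00000023391, chromosome 2, 71543408 to 71546754, minus strand) stood at 63.4, 64.7, 85.9 and 47.9 CPM in wild-type libraries and at 0.226, 0.223, 0.226, 0 and 0 CPM in mutants. The groups did not overlap for either gene. By edgeR's quasi-likelihood test with Benjamini-Hochberg adjustment over 14140 genes, Dlx1 fell by 3.67 ± 0.19 (log2 fold ± SE; adjusted p = 7.3e-09) and Dlx2 fell by 8.65 ± 0.37 (adjusted p = 1.1e-09). Both kept their calls in all 9 fits that left out 1 library, from -3.76 to -3.57 for Dlx1 and from -8.87 to -8.38 for Dlx2. How much of the locus was deleted was not stated in the labels, and counts per gene do not show where in Dlx1 its remaining reads lie.

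The other members of the Dlx family, which also encode homeobox factors, were near the limit of detection or did not pass the test. Dlx3 had 13.4, 16.4, 9.98 and 6.56 CPM in wild-type libraries and 8.13, 5.35, 5.20, 15.2 and 5.16 CPM in mutants, and Dlx5 had 1.34 to 4.51 CPM and 2.71 to 5.38 CPM. The groups overlapped for both, with log2 folds of -0.57 ± 0.37 (adjusted p = 0.796) and 0.29 ± 0.45 (adjusted p = 0.942) by edgeR's test. Dlx6 and the RNA antisense to it, Dlx6os1, were below the filter on low counts, with 13 counts over the wild-type and 8 over the mutant libraries, and 4 and 1. The antisense RNA Dlx1as, which spans Dlx1 on the minus strand (chromosome 2, 71516454 to 71537891), was also below the filter, with 23 counts over the wild-type libraries and 0 over the mutants, a ratio of at most 13.9% by an exact 95% interval for counting error.

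Beyond Dlx1 and Dlx2 no gene passed. The 2 calls are 0.0141% of the genes tested, both lower in mutants, and 1039 genes (7.35%) had an unadjusted p under 0.05, 491 higher and 548 lower. DESeq2 called 45 (0.318%), 29 higher and 16 lower, and limma-voom called 2. The call count depended on single libraries, being 11 when wild-type library 2 was left out, 4 when wild-type library 4 was, and 15 when mutant library 3 was. At a looser adjusted p under 0.1 edgeR listed 13 genes, 0.0919%. Of those, 6 (0.0424% of all genes) were lower in mutants (Dlx1, Dlx2, Vip, Cartpt, Lrrn3 and Scgn) and 7 (0.0495%) higher (Slc15a2, Rassf1, Fos, Junb, Jun and the predicted genes Gm37352 and Gm16486, named here after their values were seen). SEs of the log2 folds had a median of 0.213. Libraries did not overlap between the genotypes for 313 genes (2.21%), 158 higher (1.12%) and 155 lower (1.1%).

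**Figure D1:**
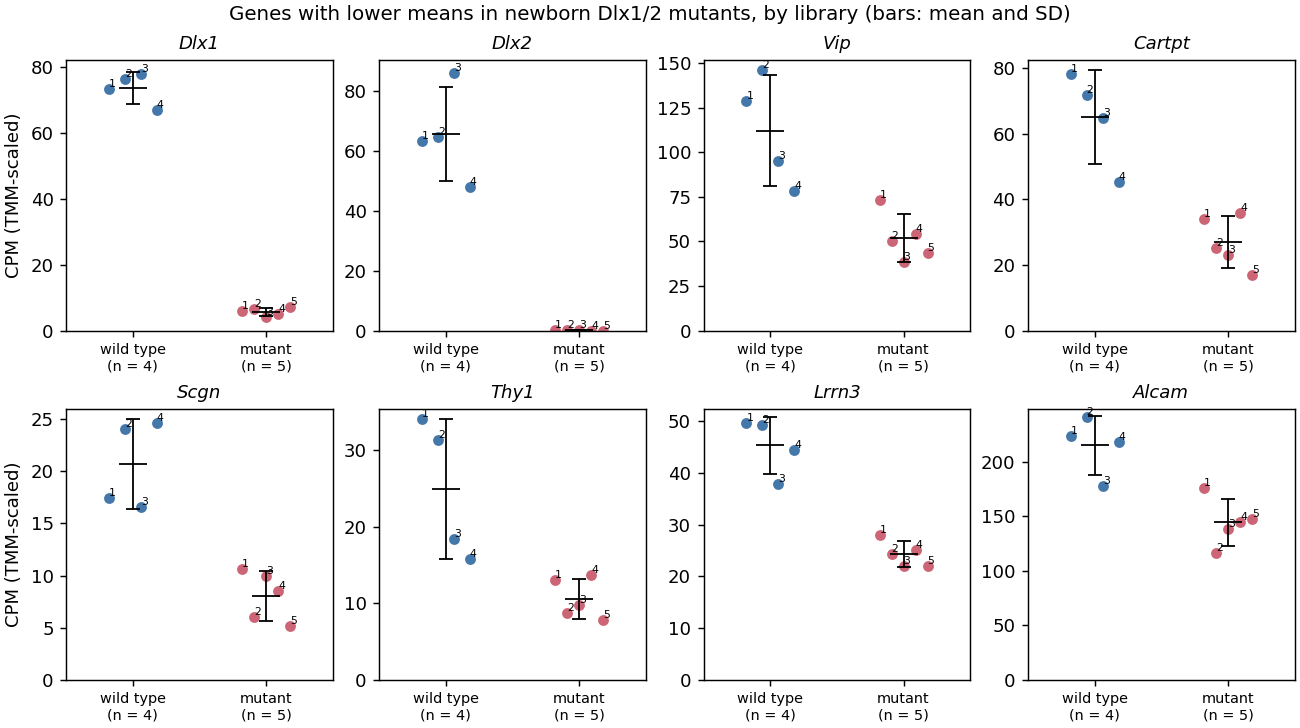
Level of 8 genes in each newborn library, in TMM-scaled CPM on linear axes from 0, with library numbers beside the points and bars for the mean and SD of 4 wild-type and 5 mutant libraries. The 2 groups do not overlap in any panel; Dlx1 and Dlx2 passed the test over all genes and the other 6 did not.

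Among the genes with the smallest p-values and a lower level in mutants were peptides of inhibitory neurons. Vip (ENSMUSG00000019772, chromosome 10, 5639218 to 5647617, plus strand), the precursor of vasoactive intestinal peptide, had 129, 146, 95.2 and 78.0 CPM in wild-type libraries and 72.9, 50.4, 38.7, 54.1 and 43.3 CPM in mutants. Cartpt (ENSMUSG00000021647, chromosome 13, 99898489 to 99901091, minus strand), the precursor of the CART peptide, had 78.2, 71.9, 64.9 and 45.2 CPM against 34.1, 25.2, 23.1, 36.0 and 16.8 CPM. Every mutant library lay below every wild-type library for both peptides, and wild-type library 4 was the lowest of its group for each. Their log2 folds were -1.11 ± 0.20 (adjusted p = 0.0967) and -1.27 ± 0.22 (adjusted p = 0.0919) by edgeR's test, and without wild-type library 4 both passed. With the date in the sample titles as a block they stood at -0.68 ± 0.30 and -0.78 ± 0.37. Only 1 such date holds both genotypes, with wild-type library 4 and mutant libraries 4 and 5, so blocked folds rest on these 3 libraries. By its Xist and Y-linked counts that wild-type library was female, and both mutant libraries were male. In every blocked fold, here and below, genotype and sex therefore cannot be told apart. The titles do not say what the dates mark.

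Scgn, secretagogin, a calcium-binding protein of secretory and neuronal cells (ENSMUSG00000021337, chromosome 13, 23953456 to 23991214, minus strand), had 17.5, 24.1, 16.6 and 24.7 CPM in wild-type libraries and 10.6, 6.02, 9.95, 8.49 and 5.16 CPM in mutants. No mutant library reached the lowest wild-type library, and the log2 fold was -1.36 ± 0.26 (adjusted p = 0.0967, edgeR). Pcsk1, the prohormone convertase that cuts peptide precursors inside secretory granules (chromosome 13, 75089826 to 75134861), had 14.3, 15.3, 10.2 and 12.2 CPM against 8.81, 3.56, 5.43, 3.57 and 5.38 CPM. Here too the groups did not overlap, with a log2 fold of -1.28 ± 0.31 (adjusted p = 0.278, edgeR). Both folds were at least as large in size with the title date blocked, at -1.85 ± 0.47 for Scgn and -1.44 ± 0.60 for Pcsk1.

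Several surface proteins of neurons stood in the same group. Lrrn3, a leucine-rich repeat membrane protein (ENSMUSG00000036295, chromosome 12, 41451668 to 41486431, minus strand), had 49.7, 49.3, 37.9 and 44.5 CPM in wild-type libraries and 28.0, 24.3, 21.9, 25.02 and 22.0 CPM in mutants. Its spread within each genotype was small, and the log2 fold of -0.90 ± 0.16 (adjusted p = 0.0967, edgeR) ran only from -0.98 to -0.86 when each library was left out. Lrrn3 lies within the span of Immp2l, which is on the opposite strand and so is counted apart in a sense-strand table. Thy1, a surface glycoprotein of mature neurons, had 34.1, 31.3, 18.4 and 15.8 CPM against 13.1, 8.69, 9.73, 13.6 and 7.85 CPM, a log2 fold of -1.23 ± 0.26 (adjusted p = 0.172, edgeR). Its wild-type libraries formed a higher and a lower pair, and its fold was -0.56 ± 0.48 with the title date blocked. Alcam, an adhesion molecule of growing axons, had 224, 242, 178 and 218 CPM against 177, 116, 138, 145 and 147 CPM, a log2 fold of -0.57 ± 0.13 (adjusted p = 0.237, edgeR). The gap between the highest mutant and the lowest wild-type library was under 2 CPM.

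Further adhesion and guidance genes with lower levels were Lrrc4c, the netrin-G ligand NGL-1 (67.6 ± 3.43 CPM in wild type, SD, n = 4, and 43.4 ± 6.81 in mutants, SD, n = 5), Kirrel3, an immunoglobulin adhesion protein (12.4 ± 3.46 and 5.03 ± 1.35), and Slit3, a secreted ligand of Robo receptors (93.9 ± 16.8 and 62.4 ± 6.95). Their log2 folds were -0.64 ± 0.14, -1.30 ± 0.30 and -0.59 ± 0.15. Slit3 overlapped by less than 1 CPM between wild-type library 4 and mutant library 1, and its fold was -0.14 ± 0.22 with the title date blocked. The list of smallest p also held Ltk, a receptor tyrosine kinase (-1.10 ± 0.26, but -0.69 without wild-type library 2), Ebf1, a transcription factor (-0.96 ± 0.24), and Trmt44, a tRNA methyltransferase (-0.93 ± 0.23). The plot of genes with lower means shows how wide the wild-type spread was for Vip and Thy1 beside Lrrn3.

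Of the 15 genes of smallest p on the lower side, Dlx1 and Dlx2 included, 14 did not overlap between the genotypes (1.1% of all genes). DESeq2 called 12 of the 15 (0.113% of all genes on that side). These genes were picked for their small p, so the counts describe them and support nothing. Within the 1 title date that holds both genotypes, 3.14.2019, wild-type library 4 was above mutant libraries 4 and 5 for all 15. Those libraries were also in the fit that picked the genes.

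**Figure D2:**
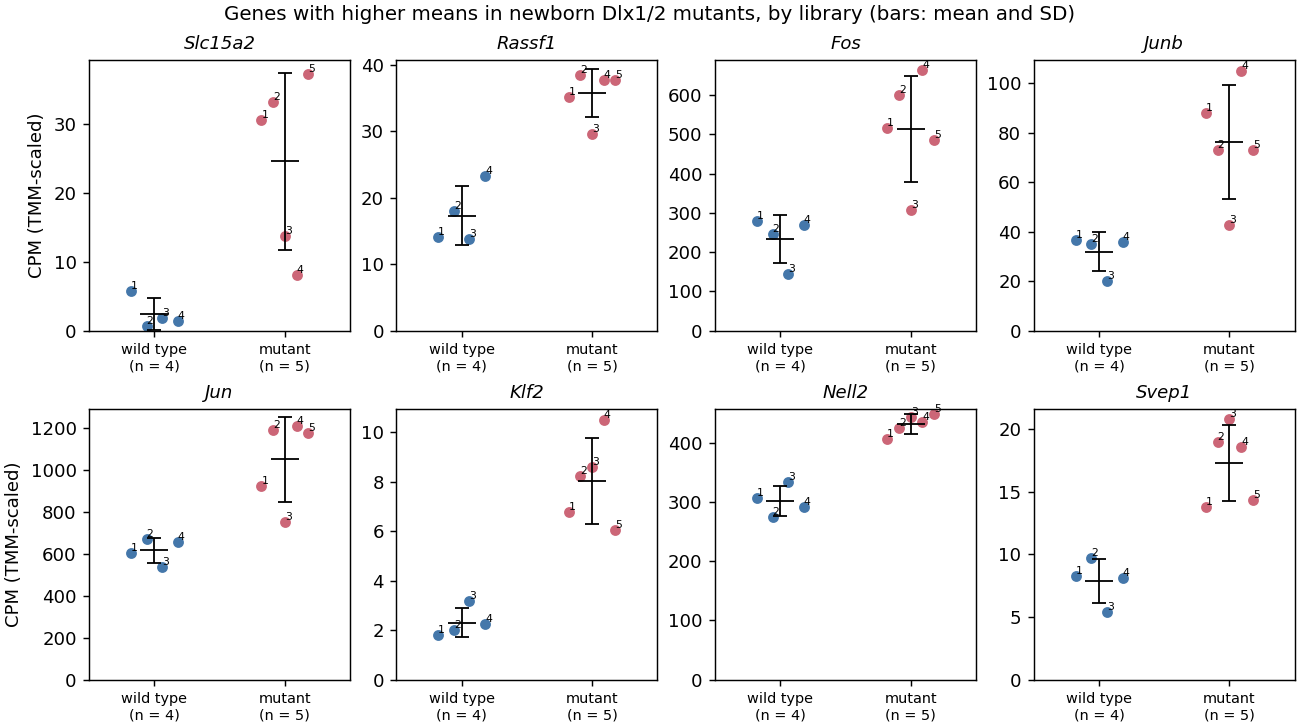
Level of 8 genes in each newborn library, in TMM-scaled CPM on linear axes from 0, with library numbers beside the points and bars for the mean and SD of 4 wild-type and 5 mutant libraries. None of the 8 passed the test over all genes; the groups do not overlap, and mutant library 3 is the lowest mutant for Fos, Junb and Jun.

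On the higher side the widest fold belonged to Slc15a2 (ENSMUSG00000022899, chromosome 16, 36750177 to 36784962, minus strand), the oligopeptide transporter PEPT2, which brings small peptides into glial and epithelial cells. It had 5.82, 0.676, 1.81 and 1.36 CPM in wild-type libraries and 30.5, 33.2, 13.8, 8.04 and 37.2 CPM in mutants. All 5 mutants were above all 4 wild-type libraries, and the log2 fold was 3.33 ± 0.54 (adjusted p = 0.0627, edgeR). It passed without wild-type library 1, where the fold was 4.23, and also without mutant library 3 or mutant library 4. Of 16 tested transporters of peptides and amino acids, 9 were higher and 7 lower, with a median log2 fold of 0.01. Slc15a2 is a member of that list, and the next smallest p-values in it were those of Slc1a2, a glutamate transporter of glia (0.57 ± 0.23), and Slc6a15, a neutral amino acid transporter (-0.43 ± 0.20).

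Immediate early genes are known to be switched on within minutes by neural activity, growth factors and tissue dissociation. Members of that list were 7 of the 15 genes of smallest p on the higher side. Fos (ENSMUSG00000021250, chromosome 12, 85473890 to 85477273, plus strand), a subunit of the AP-1 transcription factor, had 279, 245, 145 and 269 CPM in wild-type libraries and 516, 599.7, 308, 664 and 486 CPM in mutants. Junb (chromosome 8, 84974484 to 84978718, minus strand), a partner of FOS, had 36.5, 35.1, 19.95 and 35.7 CPM against 87.8, 72.9, 42.5, 105 and 72.9 CPM. Wild-type library 3 was the lowest of all 9 libraries for both, and mutant library 3 the lowest mutant. The log2 folds were 1.13 ± 0.21 and 1.26 ± 0.24 (adjusted p = 0.0967 for each, edgeR), and without mutant library 3 both passed.

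Jun, a further AP-1 subunit, had 603, 671, 537 and 653 CPM in wild-type libraries and 921, 1188, 751, 1207 and 1176 CPM in mutants, a log2 fold of 0.77 ± 0.15 (adjusted p = 0.0967, edgeR). Klf2, a zinc-finger transcription factor, had 1.79, 2.03, 3.17 and 2.26 CPM against 6.78, 8.24, 8.59, 10.5 and 6.06 CPM, a log2 fold of 1.78 ± 0.36 (adjusted p = 0.134, edgeR). Neither gene overlapped between the genotypes. Unlike the AP-1 genes, Klf2 was not lowest in mutant library 3 among the mutants. Fosb, an AP-1 subunit (1.38 ± 0.30), Btg2, an antiproliferative protein (1.19 ± 0.26), and Zfp36, which binds and destabilizes messenger RNAs (1.07 ± 0.22), had higher means as well, and all 3 overlapped between the genotypes.

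Of the 28 tested genes of the immediate early list, 24 were higher and 4 lower, with a median log2 fold of 0.69, beside 48.4% higher and a median of -0.01 over all genes. None passed over all genes in edgeR, and 7 were called by DESeq2 (0.205% of all genes on the higher side). At an unadjusted p under 0.05 there were 18 on the higher side (3.47% of all genes) and 1 on the lower. Leaving out each library, the number at that unadjusted p ran from 17 to 21 and the median from 0.61 to 0.80, and with the title date blocked 26 of 28 were higher. The summed level of the list was 3039, 3248, 2221 and 3007 CPM in wild-type libraries and 4651, 5604, 2913, 5986 and 5079 CPM in mutants. Mutant library 3 lay within the wild-type range and the other 4 mutants above it. Mutant library 3 also had the highest epithelial sum, at 7692 CPM, and the part of that in the result was not tested. Egr1, an abundant zinc-finger member, had a log2 fold of 0.68 ± 0.22. The heat shock list, whose genes encode chaperones, had no such shift, with 6 of 13 higher and a median of -0.01, and from 2 of 13 (wild-type library 2 left out) to 9 of 13 (wild-type library 1 left out). Its most abundant member, Hsp90ab1, had -0.06 ± 0.14, and Hspb1, Hspa1b and Hspa1a, of smallest p, had -0.86 ± 0.61, -0.55 ± 0.46 and 0.42 ± 0.61.

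Immediate early promoters commonly carry the cAMP response element, whose half-site is TGACG, while homeodomain proteins such as DLX bind the core TAATTA. Both were searched on either strand in the 250 bases before each RefSeq start site on GRCm38.p6, and the motifs do not overlap each other. The half-site was in 17.8% and the homeobox core in 4.84% of 32851 windows. Of the 15 genes of smallest p on the higher side 12 matched the table, and 7 held the half-site and 0 the core in any of their windows. Counted by window, as the background was, the half-site was in 10 of 16. On the lower side 12 of 15 matched, and 5 held the half-site and 0 the core, with the half-site in 5 of 13 windows. The windows of Vip (chr10:5638968-5639217, plus strand), Fos (chr12:85473640-85473889, plus strand) and Junb (chr8:84978749-84978998, minus strand) are shown because the half-site stands in front of genes from both sides, with it in capitals on either strand.
Vip: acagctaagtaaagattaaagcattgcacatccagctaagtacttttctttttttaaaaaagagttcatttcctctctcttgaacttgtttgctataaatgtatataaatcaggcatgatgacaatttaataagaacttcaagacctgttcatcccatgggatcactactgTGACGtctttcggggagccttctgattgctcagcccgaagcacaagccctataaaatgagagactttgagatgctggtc
Fos: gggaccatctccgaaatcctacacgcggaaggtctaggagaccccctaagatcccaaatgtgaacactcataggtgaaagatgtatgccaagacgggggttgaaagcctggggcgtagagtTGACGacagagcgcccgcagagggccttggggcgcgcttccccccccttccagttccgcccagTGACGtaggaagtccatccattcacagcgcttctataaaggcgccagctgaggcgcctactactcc
Junb: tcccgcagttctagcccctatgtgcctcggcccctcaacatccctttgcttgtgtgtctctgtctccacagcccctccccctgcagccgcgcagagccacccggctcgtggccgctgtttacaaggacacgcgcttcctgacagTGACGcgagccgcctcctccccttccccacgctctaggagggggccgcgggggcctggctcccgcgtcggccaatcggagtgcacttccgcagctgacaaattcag
The window of Vip held 1 half-site, that of Fos 2 and that of Junb 1. A match describes these letters only and is no evidence of binding.

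The other 8 genes of smallest p on the higher side, Slc15a2 among them, were not on the immediate early list. Rassf1, a Ras-association protein (ENSMUSG00000010067, chromosome 9, 107551555 to 107562267, plus strand), had 14.1, 18.0, 13.8 and 23.3 CPM in wild-type libraries and 35.2, 38.5, 29.6, 37.8 and 37.7 CPM in mutants. The lowest mutant was above the highest wild-type library, with a log2 fold of 1.05 ± 0.19 (adjusted p = 0.0967, edgeR) that was 0.70 ± 0.34 with the title date blocked. Nell2, a secreted neuronal glycoprotein, had 307, 275, 333 and 291 CPM against 405, 425, 443, 434 and 448 CPM. The spread within each genotype was small beside the gap between them, and the log2 fold was 0.52 ± 0.10 (adjusted p = 0.134, edgeR). Nfkbiz, a nuclear regulator of NF-kappaB (0.99 ± 0.21), Csrnp1, a nuclear protein (1.22 ± 0.28), Svep1, an extracellular matrix protein (1.13 ± 0.24), Opcml, a cell adhesion molecule of the IgLON family (1.14 ± 0.25), and Igsf9b, a synaptic adhesion protein (0.50 ± 0.11), also had no overlap between the genotypes. Of the 15 genes of smallest p on this side, 12 did not overlap (1.12% of all genes) and 14 were called by DESeq2 (0.205%). Both mutants of 3.14.2019 were above the wild-type library of that date for all 15. As on the lower side, these genes were picked for small p from the same libraries, so the counts describe them and support nothing.

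**Figure D3:**
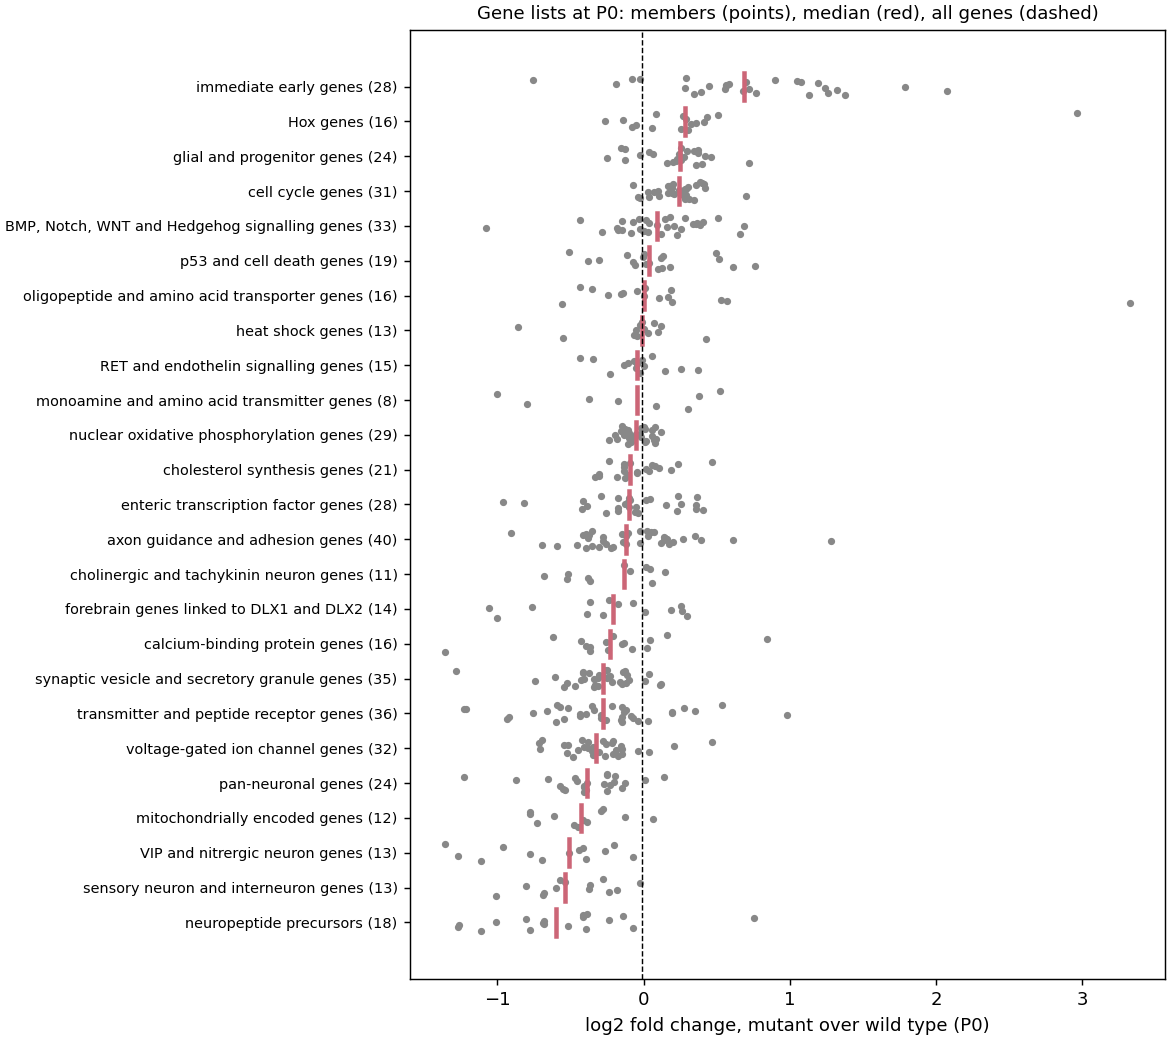
Log2 fold changes at P0 of the tested members of 25 gene lists (points, with the number tested in parentheses), each list's median as a red bar and the median of all genes tested as a dashed line. Peptide, interneuron and neuronal lists lie to the left and immediate early genes to the right, and no member shown passed the test over all genes.

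The neuropeptide precursors lay lower as a group. Of 18 tested, 17 were lower and 1 higher, with a median log2 fold of -0.60, beside 51.6% lower over all genes. None passed, 2 were called by DESeq2 (0.113% of all genes on the lower side), and 2 had no overlap between the genotypes (1.1%). At an unadjusted p under 0.05 there were 8 (3.88% of all genes on that side). That number was 4 when mutant library 2 was left out, 5 when wild-type library 2 or mutant library 5 was, and 3 with the title date blocked. In the blocked fit 13 of 18 were lower, with a median of -0.421. The summed level was 1306, 1487, 1022 and 1120 CPM in wild-type libraries and 1072, 733, 939, 924 and 705 CPM in mutants. The highest mutant was just above the lowest wild-type library. Pdyn, the dynorphin precursor, had a log2 fold of -1.26 ± 0.37 with wild-type libraries 1 and 2 well above 3 and 4. Scg2, secretogranin II, a granule protein and the most abundant member, had -0.41 ± 0.21, Penk, the enkephalin precursor, -0.51 ± 0.22, Gal, the galanin precursor, -0.40 ± 0.16, and Npy, neuropeptide Y, -0.07 ± 0.74.

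Neurons that use VIP and nitric oxide had 13 tested genes, all 13 lower in mutants (median -0.51), and 13 of 13 genes of sensory neurons and interneurons were lower, with a median of -0.54. The first list shares Vip, Cartpt, Gal, Npy and Adcyap1 with the peptides. The second shares Calcb, Calca, Nmu, Cck, Ucn3, Sst and Grp with them, counting members below the filter. These lists are therefore not separate groups of genes. None of the first list's members passed and 3 were called by DESeq2 (0.113% of all genes on the lower side). At an unadjusted p under 0.05 there were 8 (3.88% of all genes on that side). That number was 5 without wild-type library 1 and 3 with the title date blocked. In the blocked fit 10 of the 13 were lower, with a median of -0.245. Nos1, neuronal nitric oxide synthase, had 959.7, 871, 542 and 369.7 CPM in wild-type libraries and 519, 493, 359, 402 and 341 CPM in mutants. The wild-type libraries spread widely, library 4 lay inside the mutant range, and the log2 fold of -0.70 ± 0.22 was 0.01 ± 0.27 with the title date blocked. In the second list the smallest p-values were those of Cbln2, a synaptic organizer (-0.60 ± 0.21), Calcb, a calcitonin gene-related peptide (-1.01 ± 0.44), and Nmu, neuromedin U (-0.68 ± 0.36). Its most abundant member, the netrin-G protein Ntng1, had -0.27 ± 0.22, and 8 of the 13 were lower with the title date blocked (median -0.18). That list's median was -0.36 when wild-type library 1 was left out.

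Genes of cholinergic and tachykinin neurons were mixed, with 7 of 11 lower and a median of -0.13 that ran from -0.43 (mutant library 4 left out) to -0.05 (mutant library 3 left out). Chat, which makes acetylcholine, had 19.9, 36.5, 14.7 and 19.7 CPM in wild-type libraries and 31.2, 37.0, 14.7, 20.1 and 15.3 CPM in mutants, a log2 fold of 0.06 ± 0.30. Its ranges coincided almost fully. Tac1, the substance P precursor, had 72.6, 56.5, 41.0 and 59.2 CPM against 56.5, 39.4, 23.5, 31.5 and 28.0 CPM. Mutant library 1 reached the middle of the wild-type range, and the log2 fold was -0.68 ± 0.23 (adjusted p = 0.476, edgeR) and -0.99 ± 0.34 with the title date blocked. Slc5a7, the choline transporter, had -0.53 ± 0.21. Among 8 tested genes of monoamine and amino acid transmitters, 4 were higher and 4 lower. Maoa, a monoamine-degrading enzyme, had -0.38 ± 0.15, Slc18a1 and Slc18a2, the vesicular monoamine transporters, had -0.80 ± 0.44 and -0.17 ± 0.19, and Gad1, which makes GABA, had -1.0 ± 0.54 at 0.449 to 5.41 CPM.

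Genes that all neurons express were lower too. In the pan-neuronal list 22 of 24 were lower (median -0.39), and 12 had an unadjusted p under 0.05 (3.88% of all genes on the lower side). That number became 6 on leaving out wild-type library 1 or 2, 7 on leaving out mutant library 2 or 5, and 1 with the title date blocked. None passed over all genes. Prph, the intermediate filament peripherin, had 569.9, 680.3, 455 and 519 CPM in wild-type libraries and 472, 304, 355, 448 and 336 CPM in mutants, which overlap in 1 mutant library, a log2 fold of -0.54 ± 0.15. Stmn3, a microtubule regulator, had -0.57 ± 0.16, and Ncam1, an adhesion molecule that glia also carry and the most abundant member, 0.14 ± 0.11. The list's median was -0.06 with the title date blocked. The summed level was 6242 to 8472 CPM in wild-type and 5561 to 7073 CPM in mutant libraries, with wild-type library 2 highest.

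Synaptic vesicle and granule genes were lower in 31 of 35 (median -0.27). The smallest p-values were those of Pcsk1, Syt4, a vesicle synaptotagmin (-0.74 ± 0.21), and Stx1a, a syntaxin of vesicle fusion (-0.52 ± 0.16), and Pclo, an active zone scaffold and the most abundant, had -0.23 ± 0.18. Voltage-gated ion channel genes were lower in 29 of 32 (median -0.32). Among them were Cacna1c, a calcium channel (-0.53 ± 0.17), Kcnc2, a potassium channel (-0.72 ± 0.25), Hcn4, a pacemaker channel (-0.69 ± 0.24), and Kcnq3, a potassium channel and the most abundant (-0.38 ± 0.16). None of these genes passed over all genes, and with the title date blocked 23 of 35 (median -0.14) and 21 of 32 (median -0.09) were lower. Both lists leaned on wild-type library 2, and their medians were -0.15 and -0.17 when it was left out. At an unadjusted p under 0.05 there were 12 and 6 genes on the lower side with all libraries (3.88% of all genes), and 5 and 2 in that fit.

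Transmitter and peptide receptor genes were lower in 29 of 36 (median -0.27), and in 19 of 36 with the title date blocked (median -0.04). The median was -0.14 when wild-type library 2 was left out. Genes with an unadjusted p under 0.05 on the lower side then numbered 3 in place of 8 (3.88% of all genes with all libraries). Gria1, a glutamate receptor subunit, had a log2 fold of -0.92 ± 0.27, Chrna3, a nicotinic receptor subunit and the most abundant member, -0.60 ± 0.18, and Gucy1b1, a subunit of the nitric oxide receptor guanylyl cyclase, -0.59 ± 0.18. Prkg1, the cyclic GMP-dependent kinase that acts downstream of that receptor, had 35.6, 32.7, 36.5 and 36.9 CPM in wild-type libraries and 63.0, 53.7, 52.5, 39.1 and 48.5 CPM in mutants. It lay on the opposite side, with no overlap between the genotypes, a log2 fold of 0.54 ± 0.16 and an adjusted p of 0.424 (edgeR). Calcium-binding protein genes were lower in 12 of 16 (median -0.23), with a median of -0.13 when wild-type library 2 was left out, and in 9 of 16 with the title date blocked (median -0.03). Beside Scgn they included S100a6 (-0.62 ± 0.26), the neuronal calcium sensor Ncs1 (-0.43 ± 0.19) and the abundant calmodulin gene Calm2 (-0.08 ± 0.13).

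Lists of guidance, migration signalling and enteric factors had medians from -0.12 to -0.04, beside -0.01 over all genes. At an unadjusted p under 0.05, 5 of 40 axon guidance genes were lower and 3 higher. Of 28 enteric transcription factor genes 5 were lower and 2 higher at that p, beside 3.88% and 3.47% of all genes. Without wild-type library 2, 3 genes of each of those lists were on the lower side at that p. The RET and endothelin list had 0 on either side. Of 40 axon guidance and adhesion genes 24 were lower (median -0.12, and -0.06 or -0.07 when wild-type library 2 or mutant library 3 was left out), with Lrrn3 and Slit3 on the lower side and Sema3e, a secreted semaphorin, on the higher (0.61 ± 0.18), while Cdh2, N-cadherin and the most abundant member, had 0.05 ± 0.11. Of 15 genes of RET and endothelin signalling, the growth factor pathways that carry neural crest cells along the gut, 11 were lower (median -0.04), but 7 when wild-type library 2 or mutant library 3 was left out, and 2 in the fit with the title date blocked. Ednrb, the endothelin receptor of progenitors and glia, had a log2 fold of 0.25 ± 0.12, Ret, the receptor kinase of enteric precursors and neurons, -0.23 ± 0.12, and Prokr1, a prokineticin receptor, -0.43 ± 0.23. Of 28 enteric transcription factor genes 18 were lower (median -0.10). Insm1, a factor of newly born neurons, had -0.42 ± 0.15, Sox10, a factor of progenitors and glia, 0.36 ± 0.14, and Zeb2, a factor of neural crest and the most abundant, 0.25 ± 0.13.

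A list of forebrain genes tied to DLX1 and DLX2 had 14 tested members, of which 9 were lower and 5 higher (median -0.21), and 0 had an unadjusted p under 0.05. The median was -0.13 when wild-type library 1 was left out, -0.08 when mutant library 2 was, and near 0 with the title date blocked. Nrp2, a semaphorin receptor, had a log2 fold of -0.28 ± 0.14 and Pak3, a kinase of the cytoskeleton, -0.39 ± 0.21. Hox genes, which set position along the body axis, were higher in 12 of 16 (median 0.28). At an unadjusted p under 0.05 there were 4 (3.47% of all genes on the higher side), and 2 without wild-type library 4 or mutant library 4. With the title date blocked 14 of the 16 were higher (median 0.53). Hoxd8 had 2.24, 0, 0 and 0 CPM in wild-type libraries and 4.52, 1.34, 7.46, 6.26 and 3.37 CPM in mutants, with an overlap at wild-type library 1 and mutant library 2 and a log2 fold of 2.97 ± 0.89. Hoxc5 had 0.51 ± 0.19 with no overlap, Hoxb4 0.41 ± 0.17, and Hoxb5, the most abundant, -0.26 ± 0.16.

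Genes of glia and dividing progenitors lay higher. Of 24 glial and progenitor genes 19 were higher, with a median of 0.25. At an unadjusted p under 0.05 there were 7 (3.47% of all genes on the higher side), and 4 without mutant library 4 or 5. With the title date blocked 16 of the 24 were higher (median 0.23). The summed level was 6364, 6216, 6830 and 7012 CPM in wild-type libraries and 6823, 7860, 8412, 8120 and 8835 CPM in mutants. Mutant library 1 lay within the wild-type range and the other 4 above it. Col18a1, a basement membrane collagen and the most abundant member, had 0.34 ± 0.13.

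Cell cycle genes were higher in 28 of 31 (median 0.24), but in 20 of 31 without wild-type library 2, which had the lowest sum of that list at 2161 CPM, with a median then of 0.07. The median was 0.40 when wild-type library 3 was left out, 0.16 when wild-type library 4 was and 0.13 when mutant library 3 was. With the title date blocked 28 of 31 were higher (median 0.40). Mki67, a marker of dividing cells, had 929, 628, 1170.0 and 777 CPM in wild-type libraries and 973, 1015, 1350.0, 1117 and 1109 CPM in mutants. The ranges overlapped, and the log2 fold was 0.35 ± 0.16. Ccnd2, a cyclin, had 0.70 ± 0.20 with no overlap and Cenpf, a kinetochore protein, 0.42 ± 0.14. Signalling genes of the BMP, Notch, WNT and Hedgehog pathways were higher in 20 of 33 (median 0.09). Notch3, a Notch receptor, had 0.69 ± 0.22 with no overlap, Hey2, a Notch target, 0.41 ± 0.14, Gli2, a Hedgehog effector, 0.51 ± 0.21, and Notch1, the most abundant, 0.16 ± 0.11. None of these genes passed over all genes.

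**Figure D4:**
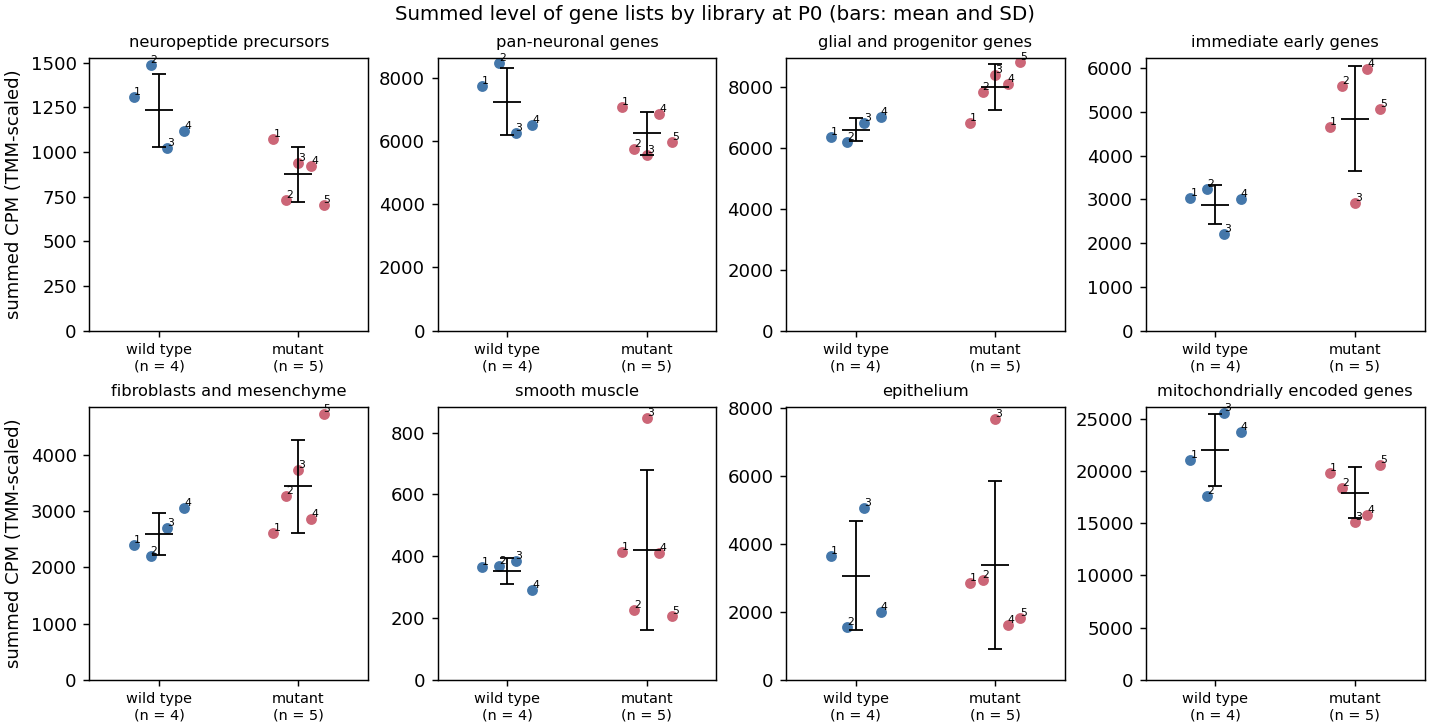
Summed TMM-scaled CPM of 8 gene or marker lists in each newborn library, on linear axes from 0, with library numbers beside the points and bars for the mean and SD of 4 wild-type and 5 mutant libraries. The genotypes overlap in every panel; mutant library 3 is the highest for epithelium and smooth muscle and lies within the wild-type range for immediate early genes.

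Markers listed for cell types other than neurons, glia and progenitors varied as well. Fibroblast and mesenchyme markers were higher in 13 of 13 tested (median 0.41), with none passing. At an unadjusted p under 0.05 there were 4 (3.47% of all genes on the higher side), and 2 if wild-type library 1 or mutant library 5 was left out. Their sum overlapped between the genotypes, with mutant library 5 highest at 4723 CPM, and the median was 0.27 when it was left out. With the title date blocked 12 of 13 were higher (median 0.40). Smooth muscle markers were higher in 7 of 9, but in 4 of 8 without mutant library 3 and 4 of 9 with the title date blocked. Epithelial markers were higher in 8 of 15, but in 1 of 15 without mutant library 3, in 2 of 15 if wild-type library 2 was left out and in 3 of 15 if wild-type library 4 was. Neuronal markers were lower in 7 of 7 and glial markers higher in 6 of 6, with medians of -0.25 and 0.24. With the title date blocked those medians were -0.007 and 0.22. The part of the marker differences in the gene groups above was not tested.

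Mitochondrially encoded genes, subunits of the respiratory chain read from the mitochondrial genome, were lower in 11 of 12 (median -0.43). Their sum was 21070.0, 17630.0, 25620.0 and 23720.0 CPM in wild-type libraries and 19870.0, 18360.0, 15100.0, 15830.0 and 20590.0 CPM in mutants, which overlap, with wild-type library 2 inside the mutant range. Of the 12, 7 had an unadjusted p under 0.05 (3.88% of all genes on the lower side). However, leaving out single libraries gave 0 (wild-type 3), 1 (wild-type 4), 2 (mutant 4), 3 (mutant 1), 4 (mutant 3) and 5 (mutant 2 or 5). That number was 7 without wild-type library 1 and 9 without wild-type library 2. In each of these fits 11 or 12 of the 12 were lower, with medians from -0.53 to -0.33. With the title date blocked 12 of 12 were lower (median -0.59). mt-Nd5, mt-Nd4 and mt-Nd2 had log2 folds of -0.41 ± 0.15, -0.39 ± 0.15 and -0.48 ± 0.20, and mt-Co1, the most abundant, -0.13 ± 0.12. Nuclear genes of the same chain were closer to 0, with 18 of 29 lower and a median of -0.05, such as Ndufb10 (-0.18 ± 0.15), Cox4i1 (-0.16 ± 0.14), Sdhb (-0.20 ± 0.18) and Atp5a1 (-0.02 ± 0.11).

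Remaining lists gave few differences. Among p53 targets and cell death genes, 12 of 19 were higher (median 0.03). Cdkn1a, the cell cycle inhibitor p21, had 8.29, 11.9, 11.6 and 9.72 CPM in wild-type libraries and 20.6, 15.8, 19.7, 12.3 and 19.96 CPM in mutants. These do not overlap, and the log2 fold was 0.77 ± 0.23 (adjusted p = 0.424, edgeR). Apaf1, an activator of caspases, had 0.52 ± 0.18, Gadd45g, a stress sensor, -0.51 ± 0.26, and Bcl2, a survival protein, 0.12 ± 0.16. Among cholesterol synthesis genes 13 of 21 were lower (median -0.09), while Insig1, a brake on that pathway, had 0.46 ± 0.14 with no overlap, Fdps -0.31 ± 0.24 and Srebf2 -0.09 ± 0.13. The abundant amino acid transporter Slc38a1 had -0.05 ± 0.11.

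Genes next to the deleted pair were read for a local effect. Of 16 other genes tested within 1 Mb of Dlx1 and Dlx2, 7 were higher and 9 lower, 0 passed, and 1 had an unadjusted p under 0.05, beside 7.35% of all genes. That gene was Slc25a12, the mitochondrial aspartate-glutamate carrier, with 70.8, 72.5, 47.4 and 59.0 CPM in wild-type libraries and 51.7, 39.7, 33.9, 46.5 and 35.4 CPM in mutants. It overlapped through wild-type library 3 and mutant library 1, with a log2 fold of -0.59 ± 0.17 (adjusted p = 0.424, edgeR). The others ran from Gad1 at -1.0 and Rapgef4 at -0.62 ± 0.55 to Cybrd1 at 0.65 ± 0.37. The remaining neighbours lay between these, with Itga6 at 0.20 ± 0.11, Dync1i2 at -0.17 ± 0.11, Tlk1 at -0.13 ± 0.12, Map3k20 at 0.06 ± 0.16, Gorasp2 at -0.05 ± 0.14, Metap1d at 0.17 ± 0.25, Pdk1 at -0.06 ± 0.29, Hat1 at -0.04 ± 0.21, Dcaf17 at 0.02 ± 0.16, Mettl8 at -0.10 ± 0.21, Cdca7 at 0.40 ± 0.30 and Erich2 at 0.11 ± 0.49.

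**Figure D5:**
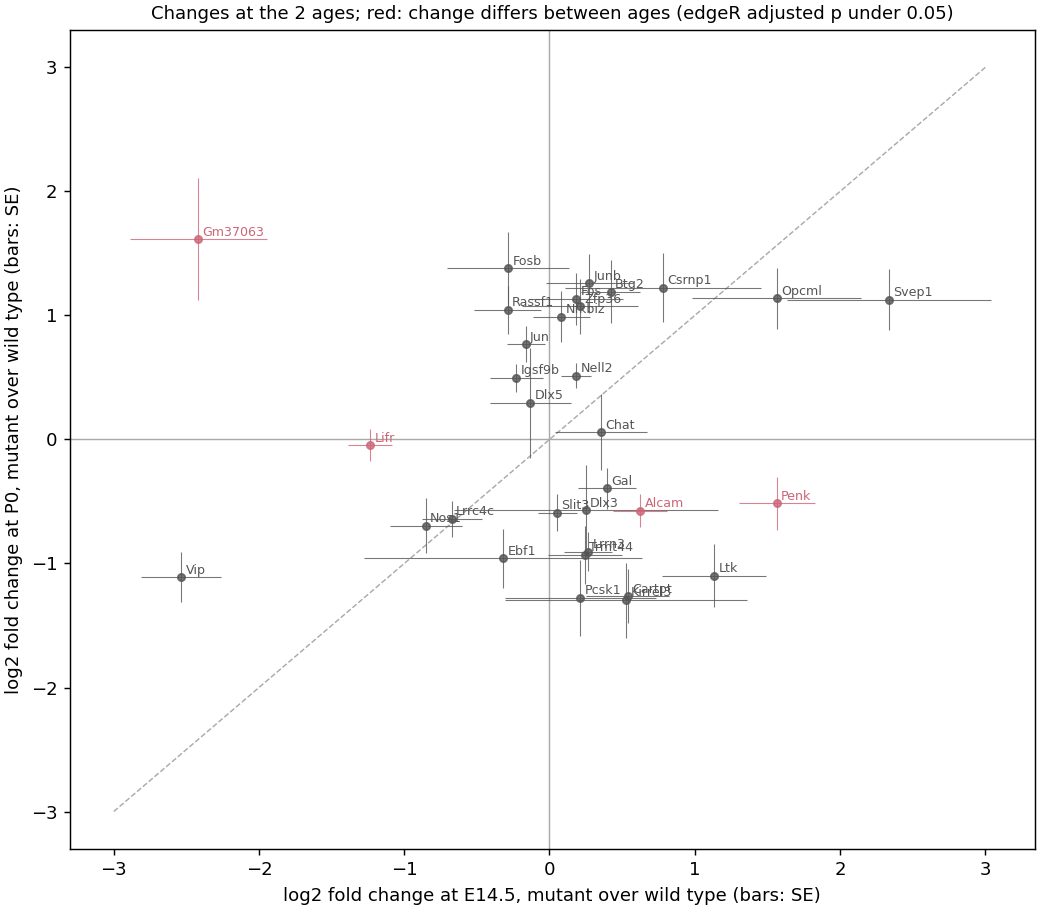
Log2 fold change between mutant and wild type at P0 (vertical axis) against E14.5 (horizontal axis) for named genes tested at both ages, with bars for the SE and the line of equal change dashed. Alcam, Penk, Lifr and Gm37063, in red, had changes that differed between the ages; Vip is lower in mutants at both ages.

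The newborn change was set against the embryonic one by testing the difference of the 2 changes in 1 edgeR fit over all 4 groups. Age, reporter and strain differ together, and in the difference they cannot be told apart. Of 14616 genes 4 differed, or 0.0274%, and 1273 (8.71%) had an unadjusted p under 0.05. Alcam went from a log2 fold of 0.62 ± 0.19 at E14.5 to -0.57 ± 0.13 at P0, a difference of -1.20 ± 0.20 (adjusted p = 0.0332, edgeR). Penk went from 1.56 ± 0.26 to -0.51 ± 0.22, a difference of -2.08 ± 0.38 (adjusted p = 0.0472, edgeR). Its counts at P0 were 1245, 1052, 961 and 967 in wild-type and 1149, 548, 949, 562 and 497 in mutant libraries, and at E14.5 they were 236, 135, 105 and 98 in wild-type and 302, 428, 644 and 351 in mutant libraries. In the embryo all 4 mutant libraries lay above the wild-type range, while at P0 mutant library 1 lay within it and the other 4 below it, library 3 only just.

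Lifr, the receptor for leukemia inhibitory factor, had 93.6, 83.1, 93.2 and 97.9 CPM in newborn wild-type libraries and 92.8, 86.2, 72.1, 88.9 and 105 CPM in mutants. It did not separate the genotypes at P0 (-0.05 ± 0.13), against -1.24 ± 0.15 at E14.5, a difference of 1.19 ± 0.20 (adjusted p = 0.0332, edgeR). Gm37063, an unclassified transcript that lies inside Mir99ahg on the same strand and may share its reads, had 1.61 ± 0.49 at P0 and -2.42 ± 0.47 at E14.5 (difference 4.03 ± 0.70, adjusted p = 0.0332, edgeR). These calls depended on single libraries: of 17 fits that left out 1 library, Alcam was called in 8, Lifr in 5, Gm37063 in 7 and Penk in 6, and 0 genes were called on leaving out P0 wild-type 1, wild-type 2, mutant 2 or mutant 4, or E14.5 wild-type 3 or mutant 3. The count was 1 on leaving out P0 wild-type 3, wild-type 4 or mutant 5, 2 for P0 mutant 1, 7 for E14.5 wild-type 1 and 9 for E14.5 mutant 2.

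For the following newborn genes the difference between ages did not pass, and their values stand side by side. Vip had -1.11 ± 0.20 at P0 and -2.54 ± 0.28 at E14.5, and Lrrc4c -0.64 ± 0.14 and -0.67 ± 0.21. Cartpt had -1.27 ± 0.22 at P0 and 0.54 ± 0.28 at E14.5, Lrrn3 -0.90 ± 0.16 and 0.27 ± 0.17, and Ltk -1.10 ± 0.26 and 1.13 ± 0.36. Those 3 had opposite signs at the 2 ages. On the higher side Fos had 1.13 ± 0.21 and 0.18 ± 0.33, Jun 0.77 ± 0.15 and -0.16 ± 0.13, and Svep1 1.13 ± 0.24 and 2.34 ± 0.70. Scgn, Thy1, Slc15a2 and Klf2 were below the filter on low counts at E14.5.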

How the data were processed

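Cells were freed with dispase and collagenase and sorted, and total RNA was made into stranded libraries by a kit for low input, per the labels' protocols. The submitters' processing notes list STAR, limma, mm10 and GRCm38 without saying what each was used for. The authors deposited whole counts of sense-strand reads for every gene, 1 table per age. Totals of the newborn libraries were nearly equal, so they appear to have been brought to a common total, a step no source used here describes, and the original depth is unknown. A count of 0 allows up to 3 counts.

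The newborn counts were fitted with edgeR 4.0.16 in R 4.3.3 (TMM, filterByExpr, quasi-likelihood test, adjusted p threshold 0.05). SE is the size of the log2 fold over the square root of F, and CPM of single genes uses the TMM-scaled totals over genes that were tested. Summed CPM of lists and markers uses TMM-scaled totals over all genes and includes members below the filter. Intervals cover counting error only, at 95%. Ages were compared in 1 joint fit. Lists are described by counts and medians beside all genes. Identifiers and coordinates are those of GENCODE M21. No pair of libraries agreed within sampling noise. The fit was tested on simulated data. Alternatives used DESeq2 1.42.0, limma 3.58.1 and sva 3.50.0.

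The members, lists and naming rule were chosen with earlier results of these data known. The rule names every Dlx gene, then Npy, Cartpt, Tac1, Gal, Penk, Chat, Nos1 and Vip, and every gene past the threshold. It adds the 15 smallest p per direction (mean of at least 20 counts, without predicted, pseudo- and sex genes), 3 members of smallest p and the most abundant member per list, neighbours of the deleted pair up to 1 Mb away, and genes that differed between ages. Counts of list members with a library left out or with a block were added after seeing the data. A few genes that the rule names are not reported here.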

Additional observations from a re-analysis of the deposited data

Results flagged for a closer look

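Single libraries stood apart from the rest of their group in 7 of 148 checks (38 genes and 36 lists, by genotype), against about 1 in 20 that chance gives. Wild-type library 3 was apart for Junb, at 19.95 CPM, and for the summed red blood cell markers, at 23.7 CPM. Mutant library 3 was apart for Btg2, at 44.3 CPM, for the summed axon guidance and adhesion genes, at 4081 CPM, and for the summed epithelial markers, at 7692 CPM. Mutant library 1 was apart for Ebf1, at 16.9 CPM, and for the summed glial and progenitor markers, at 2617 CPM.

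The change between genotypes differed between the ages for 4 genes by a test of the difference itself, on the log2 scale by -1.2 for Alcam, 1.19 for Lifr, 4.03 for Gm37063 and -2.08 for Penk.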

How the results depend on the processing

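The number of genes called at P0, Dlx1 and Dlx2 included, was 45 with DESeq2 (29 higher, 16 lower), 98 without a count filter (55 higher, 43 lower), 22 with a replicate block (16 higher, 6 lower), 20 with 1 surrogate variable (13 higher, 7 lower) and 13 at an adjusted p under 0.1. It was 2 with limma-voom, RLE scaling, a mean of at least 20 counts, the title date as a block, a sex covariate or without mt-Rnr2. Leaving out 1 library gave 2 to 15. The number of genes that differed between ages was 85 with separate fits, 42 with DESeq2 and 2 with the replicate block, 1 of them among the 4, and 0 to 9 leaving out 1 library. The causes were not tested. Labels do not tie replicate numbers to animals or days, and same-numbered deviations correlated at 0.05, 0.14, 0.23 and -0.09, so the numbers were taken as names only. Dlx1 and Dlx2 kept direction and call under every alternative run.

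Genes that did not pass changed sign under some settings. With the title date as a block these were Dlx3 (0.63), Nos1 (0.007), Chat (-0.15), Gal (0.12), Npy (0.47), Prokr1 (0.041), Ret (0.11), Hoxb5 (0.21), Hspb1 (1.17), Hspa1a (-0.41), Bcl2 (-0.14), Atp5a1 (0.015), Srebf2 (0.32), Slc38a1 (0.061), S100a6 (0.65), Ncs1 (0.022), Calm2 (0.01), Gorasp2 (0.31), Cybrd1 (-0.34), Hat1 (0.038), Dcaf17 (-0.08), Rapgef4 (1.61) and Cdca7 (-0.007). Npy was 0.92 with limma-voom, 0.55 with the replicate block, 0.37 with the sex covariate and 0.47 with a surrogate variable. Pdk1 was 0.046, 0.079, 0.118 and 0.01 in the same order. With the replicate block and with a surrogate variable, Atp5a1 was 0.007 and 0.0, and Hat1 0.009 and 0.015. Leaving out 1 library, Chat ran from -0.15 to 0.38, Npy from -0.46 to 1.46, Pclo from -0.36 to 0.005, Hsp90ab1 from -0.18 to 0.024, Atp5a1 from -0.072 to 0.017, Slc38a1 from -0.10 to 0.002, Calm2 from -0.16 to 0.011, Pdk1 from -0.28 to 0.33, Gorasp2 from -0.13 to 0.043, Hat1 from -0.17 to 0.15, Dcaf17 from -0.037 to 0.082, Erich2 from -0.061 to 0.23 and Lifr from -0.11 to 0.022.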

Other observations

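Leaving out wild-type library 2 gave 9 further calls. Csrnp1, a nuclear protein, had a log2 fold of 1.58 there and 1.22 over all 9 libraries. The other calls were 8 predicted genes, all lower in mutants. Over all 9 libraries, where none of them passed, the log2 folds ran from -1.32 for Gm10222 to -0.75 for Gm28661, with Gm4076, Gm28439, Gm28437, Gm10925, Gm13340 and Gm29216 between them. These 8 stand outside the naming rule and were named after their values were seen. Whether they share reads with one another or with other genes was not tested, so they may not be 8 separate changes.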
